A study of Arabidopsis thaliana with 12 samples.

Results

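Cell cycle and division genes were followed in light-grown seedlings of Arabidopsis thaliana whose plastids could or could not make protein. They were chosen by symbol: a probe set had to name 1 gene in the array annotation, with a symbol that starts like a cyclin, a cyclin-dependent kinase, an Aurora kinase, a KRP or SMR inhibitor, an MCM or ORC protein, an E2F factor or a CDC protein. Of the 13356 genes that the annotation named alone, 4 met this rule, each with 1 probe set: AUR1 (AT4G32830), AUR2 (AT2G25880), AUR3 (AT2G45490) and CDC27a (AT3G16320). No cyclin, CDK, KRP, SMR, MCM, ORC or E2F symbol was met. Of the 13513 probe sets that name 1 gene, 11933 carry a locus number as symbol and 1580 a gene name, and 8730 further probe sets are unnamed here. The symbol cdc2cAt, a CDC2-related kinase, differs from the rule only in its lower-case letters and was read with the pathway genes further on. The 4 genes therefore stand for the Aurora kinases and for 1 subunit of the anaphase-promoting complex, not for the cell cycle as a whole.

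The 6 groups were gun1-1 with lincomycin, gun1-1 without it, abi4-102 with lincomycin, abi4-102 without it, Col-0 with lincomycin and Col-0 without it, each on 2 ATH1 arrays (n = 2 for every group mean). Both mutants are in the Col-0 ecotype. gun1-1 carries a mutation in a pentatricopeptide repeat protein of plastids, and abi4-102 one in an AP2-type transcription factor. All groups were whole seedlings, 5 days old, grown at 21 °C under light/dark cycles at 20 µmol per square metre and second on Murashige and Skoog medium with 1% sucrose. Lincomycin, which blocks translation on plastid ribosomes, is given as 220 µg/ml in one label and 200 µg/ml in another. For 1 sample, untreated gun1-1 replicate 2, the genotype tag names all 3 genotypes and the title was followed instead. GUN1 and ABI4 were not analysed here by name, so the arrays gave no check of the genotype labels. The labels do not say whether the 2 samples of a group were separate cultures, and the p-values reflect only how far these samples differ, which may be technical.

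Aurora kinases are mitotic protein kinases. In Arabidopsis the closely related AUR1 and AUR2, the alpha Auroras, sit on the spindle and the forming cell plate and help to orient formative divisions, while AUR3, the beta Aurora, sits on chromosomes at centromeres and phosphorylates histone H3. CDC27a is a subunit of the anaphase-promoting complex, the ubiquitin ligase that ends mitosis by marking mitotic cyclins and securin for destruction, and it shares its role with HBT, also called CDC27b. Mitotic transcripts come from the few dividing cells of the meristems and young leaves, and in whole seedlings fewer such cells and less RNA per cell cannot be told apart.

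AUR2 fell with lincomycin in all 3 genotypes, and no call was made for AUR1, AUR3 or CDC27a in any comparison. The fall of AUR2 was 1.66-fold in gun1-1, 2.76-fold in abi4-102 and 2.59-fold in Col-0. Values are RMA expression on the log2 scale, so a difference of 1 is a doubling, and they are compared for one gene at a time, since probe sets differ in their response to RNA.

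AUR2 had 5.95 and 6.22 in gun1-1 with lincomycin, against 6.70 and 6.94 in gun1-1 without it. In abi4-102 it had 5.16 and 5.54 with lincomycin, against 6.98 and 6.66 without it. In Col-0 it had 5.62 and 5.32 with lincomycin, against 6.74 and 6.95 without it. All 6 arrays with lincomycin therefore lay below all 6 arrays without it, and the gun1-1 arrays were the highest of those with lincomycin. The log2 difference, with lincomycin minus without, was -0.73 in gun1-1 (standard error, SE, 0.18, 95% interval -1.13 to -0.34), with a Benjamini-Hochberg adjusted p of 0.0279 in limma's moderated test over all probe sets. It was -1.47 in abi4-102 (SE 0.18, interval -1.86 to -1.07, adjusted p = 0.000552). It was -1.37 in Col-0 (SE 0.18, interval -1.77 to -0.97, adjusted p = 0.00045). In gun1-1 the call rested on every one of the 4 arrays: the difference lay between -0.87 and -0.60, and the adjusted p was 0.129 and 0.0519 without lincomycin-treated replicates 1 and 2, and 0.0574 and 0.14 without untreated replicates 1 and 2. It was also lost when only the gun1-1 arrays entered the fit (adjusted p = 0.0634).

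**Figure D1:**
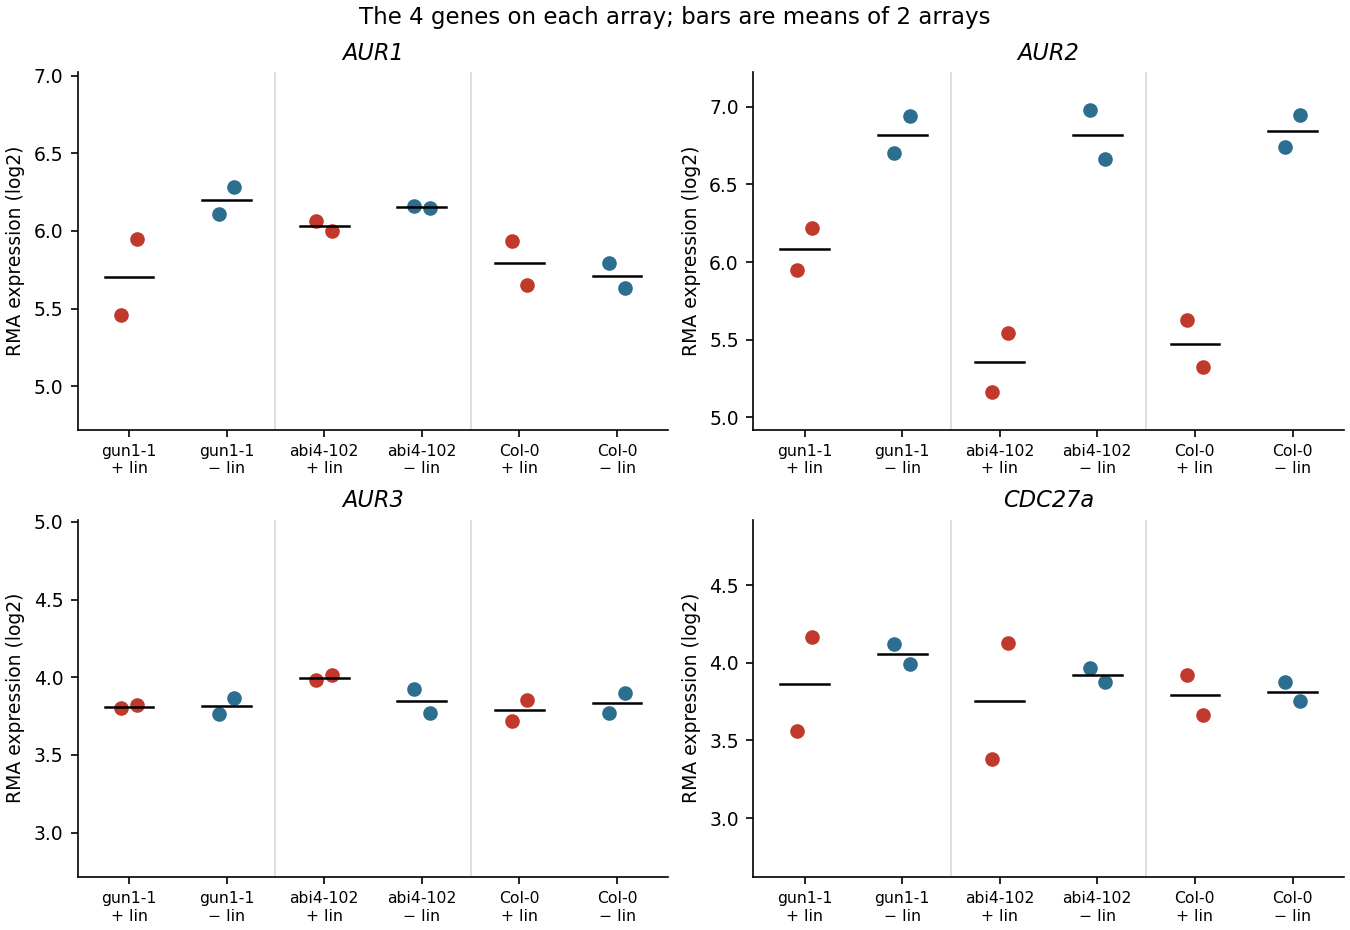
RMA expression (log2, vertical axis) of AUR1, AUR2, AUR3 and CDC27a on each of 12 arrays, with (+ lin) and without (− lin) lincomycin in gun1-1, abi4-102 and Col-0. Points are arrays and bars the means of 2; all panels span the same number of log2 units, and AUR2 alone has every array with lincomycin below every array without it.

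In each lincomycin comparison 1 of the 4 genes, AUR2, was called, and it was lower. A probe set was called at an adjusted p under 0.05, and over all 22746 probe sets tested 10.7% were called in gun1-1, 4.90% as lower and 5.79% as higher. In abi4-102 13.2% were called, 5.51% as lower and 7.65% as higher. In Col-0 17.4% were called, 7.95% as lower and 9.40% as higher. A count of 1 in 4 is too small to set the group apart from these shares, so what follows is about the genes singly. A difference at least as low as that of AUR2 was seen in 2.88% of all probe sets in gun1-1, in 0.475% in abi4-102 and in 1.42% in Col-0.

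AUR1, the closest relative of AUR2, had 5.46 and 5.95 in gun1-1 with lincomycin, against 6.11 and 6.28 in gun1-1 without it. In abi4-102 it had 6.06 and 5.997 with lincomycin, against 6.16 and 6.15 without it. In Col-0 it had 5.93 and 5.65 with lincomycin, against 5.79 and 5.64 without it. The groups did not overlap in gun1-1 or abi4-102 and overlapped in Col-0. With 2 arrays against 2, uncalled genes can also fail to overlap, and the share over all probe sets was not counted. The log2 difference was -0.49 in gun1-1 (SE 0.16, adjusted p = 0.0775), -0.12 in abi4-102 (SE 0.16, adjusted p = 0.688) and 0.08 in Col-0 (SE 0.16, adjusted p = 0.821), and none was called. The gun1-1 value hung on single arrays: without lincomycin-treated replicate 2 it was -0.74 and passed (adjusted p = 0.0276), and over all arrays left out in turn it ran from -0.74 to -0.25, with adjusted p up to 0.362.

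AUR3 stayed within a narrow band, from 3.72 to 4.01 over the 12 arrays, with a median of 3.84. Its group means were 3.81 with lincomycin and 3.82 without it in gun1-1, 3.998 and 3.85 in abi4-102, and 3.79 and 3.84 in Col-0, in the same order. The log2 differences were -0.01 in gun1-1 (95% interval -0.25 to 0.24), 0.15 in abi4-102 (-0.09 to 0.39) and -0.05 in Col-0 (-0.29 to 0.19). The intervals bound any change of AUR3 in gun1-1 and Col-0 within 0.29 log2 units either way and its change in abi4-102 within 0.39. Its mean lay at the 28.2 percentile of all probe sets, and RMA shrinks differences among dim probe sets.

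CDC27a ranged from 3.38 to 4.16 over the 12 arrays, with a median of 3.90 and a mean at the 28.6 percentile. Its replicates lay further apart with lincomycin in both mutants: 3.56 and 4.16 in gun1-1, and 3.38 and 4.12 in abi4-102. Without lincomycin they were 4.12 and 3.99 in gun1-1 and 3.96 and 3.88 in abi4-102. In Col-0 they were 3.92 and 3.66 with lincomycin, against 3.88 and 3.75 without it. The groups overlapped in every genotype, and the differences were -0.19 in gun1-1 (95% interval -0.72 to 0.33), -0.17 in abi4-102 (-0.69 to 0.36) and -0.02 in Col-0 (-0.54 to 0.50). These intervals are wide enough to hold a change as large as that of AUR1 in gun1-1.

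**Figure D2:**
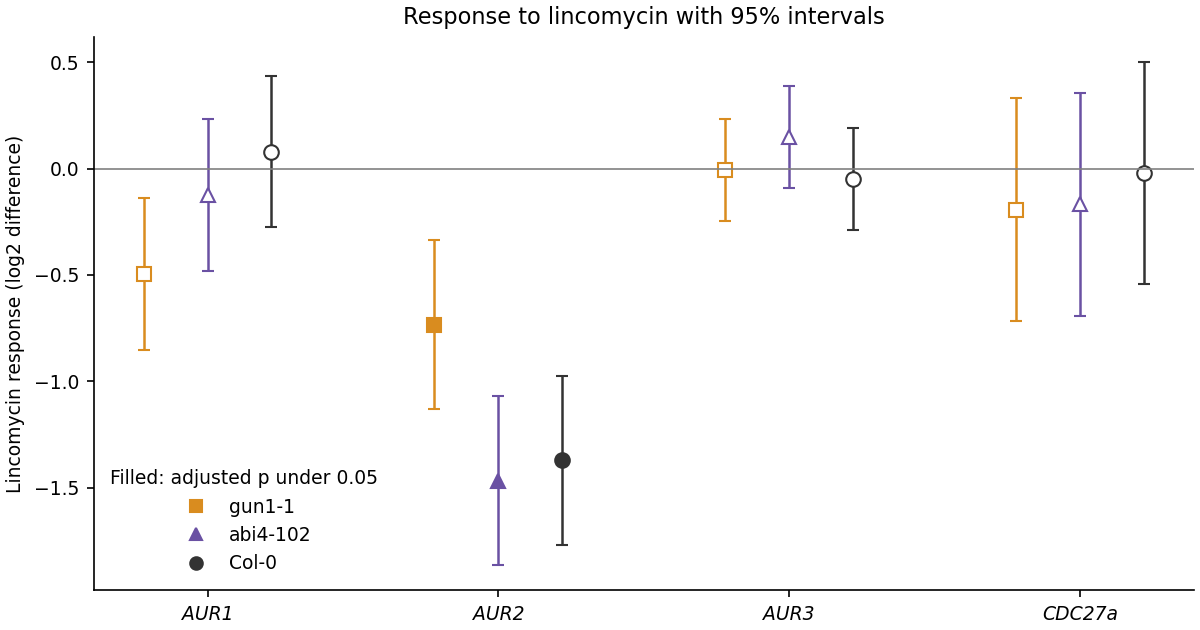
Lincomycin response (log2 difference, with minus without, vertical axis) of the 4 genes in gun1-1, abi4-102 and Col-0, with 95% intervals from the fit over all 12 arrays; filled symbols passed an adjusted p under 0.05. Only the 3 AUR2 symbols, at -0.73, -1.47 and -1.37, are filled.

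The alpha Auroras were also set against each other within each array, as the AUR2 value minus the AUR1 value, a comparison chosen after their values were seen, of which only the shift with lincomycin is read. In gun1-1 this difference was 0.49 and 0.28 with lincomycin, against 0.59 and 0.65 without it. In abi4-102 it was -0.90 and -0.45 with lincomycin, against 0.82 and 0.51 without it. In Col-0 it was -0.31 and -0.33 with lincomycin, against 0.95 and 1.31 without it. The shift with lincomycin was thus lower in all 3 genotypes, by -0.24 in gun1-1, -1.35 in abi4-102 and -1.45 in Col-0. Its mean over genotypes was -1.01. The same mean shift was -1.22 for AUR2 minus AUR3 and -1.06 for AUR2 minus CDC27a. No p is given for these shifts, since the pairs were chosen for the fall of AUR2.

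Whether the mutants answered lincomycin differently from Col-0 was tested as the difference of the responses. For AUR2 the gun1-1 response minus the Col-0 response was 0.64 (SE 0.25, 95% interval 0.08 to 1.2). It had an unadjusted p of 0.0298 and missed the threshold over all probe sets (adjusted p = 0.231). For AUR1 the same difference was -0.57, of opposite sign (SE 0.23, interval -1.08 to -0.07, unadjusted p = 0.0292, adjusted p = 0.229). It was 0.04 for AUR3 (interval -0.30 to 0.38) and -0.17 for CDC27a (interval -0.91 to 0.57). None of the 4 genes was called, against 4.38% of all probe sets. The Col-0 arrays enter all of these differences and the mutant comparisons below, so the values share them.

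The abi4-102 response minus the Col-0 response was -0.10 for AUR2 (95% interval -0.66 to 0.47, adjusted p = 0.944). The smallest p of the 4 genes belonged to AUR3, at 0.20 (interval -0.14 to 0.54, adjusted p = 0.75), and then to AUR1, at -0.20 (interval -0.71 to 0.30, adjusted p = 0.847). None of the 4 was called, and limma called 0% of all probe sets in this comparison (0 of 22746, with 2230 at an unadjusted p under 0.05).

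With lincomycin, the AUR2 values of gun1-1 all lay above those of Col-0, at 5.95 and 6.22 in gun1-1 against 5.62 and 5.32 in Col-0. The difference was 0.61 (SE 0.18, 95% interval 0.21 to 1.01, 1.53-fold), and at an adjusted p of 0.0577 it lay just outside the threshold. It passed with an intensity trend and robust prior (adjusted p = 0.047), with arrays centred on their medians (0.66, adjusted p = 0.0363), among the upper 60% of probe sets (adjusted p = 0.0428), and without either abi4-102 array with lincomycin, which moved only the pooled spread (adjusted p = 0.0481). Without other arrays the adjusted p reached 0.274. Of the 8 settings other than leaving out an array, 3 passed and 5 did not, with adjusted p up to 0.114. Among these 5, a log2 difference of at least 1 could not be met by 0.61. The probe set of highest variance was the same single AUR2 probe set, so that setting repeated the main fit. AUR1 had the next smallest p, at -0.09 (SE 0.16, adjusted p = 0.812). None of the 4 genes was called here, against 10.0% of all probe sets.

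With lincomycin, abi4-102 and Col-0 overlapped for AUR2 (5.16 and 5.54 in abi4-102 against 5.62 and 5.32 in Col-0). The difference was -0.12 (SE 0.18, adjusted p = 0.871). The smallest p of the 4 genes were those of AUR3, at 0.21 (SE 0.11, adjusted p = 0.525), and AUR1, at 0.24 (SE 0.16, adjusted p = 0.652). None of the 4 was called, against 0.457% of all probe sets.

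Without lincomycin the AUR2 values of the 3 genotypes overlapped, with means of 6.82 ± 0.17 in gun1-1, 6.82 ± 0.22 in abi4-102 and 6.84 ± 0.15 in Col-0 (SD, n = 2 each). The differences from Col-0 were -0.02 in both mutants, with 95% intervals of -0.42 to 0.37. AUR1 had 6.11 and 6.28 in untreated gun1-1 and 6.16 and 6.15 in untreated abi4-102, against 5.79 and 5.64 in untreated Col-0. The difference was 0.48 in gun1-1 (SE 0.16, unadjusted p = 0.0125, adjusted p = 0.615) and 0.44 in abi4-102 (SE 0.16, unadjusted p = 0.0202, adjusted p = 0.224), and neither was called. Both mutants were set against the same 2 Col-0 arrays, and the share of all probe sets that do not overlap in this way was not counted. Next by p came CDC27a, at 0.24 in gun1-1 (SE 0.24, adjusted p = 0.946) and 0.11 in abi4-102 (SE 0.24, adjusted p = 0.934). None of the 4 genes was called in either mutant, against 0.0220% of all probe sets in gun1-1 and 1.68% in abi4-102.

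Set in order, the AUR2 means ran from 5.35 ± 0.27 in abi4-102 with lincomycin through 5.47 ± 0.21 in Col-0 with lincomycin and 6.09 ± 0.19 in gun1-1 with lincomycin to the 3 untreated groups (SD, n = 2 each). The lowest pair overlapped, gun1-1 with lincomycin stood clear of its neighbours on every array, and the 3 untreated groups overlapped with each other. The order for AUR1 was another: 5.70 ± 0.35 in gun1-1 with lincomycin, 5.71 ± 0.11 in Col-0 without it, 5.79 ± 0.20 in Col-0 with it, 6.03 ± 0.05 in abi4-102 with it, 6.15 ± 0.01 in abi4-102 without it and 6.196 ± 0.12 in gun1-1 without it.

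The annotation of AUR2 overlaps that of its neighbour AT2G25890 in the TAIR10.1 gene table, which was used for gene order only, and its strand was not used here. AT2G25890 had 5.10 and 4.02 in gun1-1 with lincomycin against 4.15 and 5.34 without it, 5.22 and 5.26 in abi4-102 with lincomycin against 5.49 and 5.40 without it, and 5.93 and 4.68 in Col-0 with lincomycin against 6.44 and 6.48 without it. Its replicates differed by over 1 log2 unit in 3 of the 6 groups. It was not called: the differences were -0.19 in gun1-1 (SE 0.45, adjusted p = 0.838), -0.21 in abi4-102 (adjusted p = 0.821) and -1.16 in Col-0 (adjusted p = 0.111). AT2G25870, the neighbour on the other side, showed -0.09, -0.14 and -0.21 in gun1-1, abi4-102 and Col-0, none called. The probes of the AUR2 probe set were not placed on the genome here, so whether AT2G25890 transcripts reach them was not tested. AUR1 and AUR3 also overlap a neighbour, PFK6 and GRF9, neither of which was analysed here by name.

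Other genes of cell division were read for context from 8 lists chosen for the pathway, of whose 135 loci 21 were measured by name, and from 4 further lists of 32 genes put together from the names the annotation gives. Over these 53 genes the lincomycin response had a median of -0.09 in gun1-1, 0.09 in abi4-102 and 0.14 in Col-0, against -0.01, 0.02 and 0.02 over all probe sets. In gun1-1 0 of 53 were called either way, against 5.79% of all probe sets called as higher and 4.90% as lower. In abi4-102 6 (11.3%) rose and 1 (1.89%) fell, against 7.65% and 5.51% of all probe sets. In Col-0 8 (15.1%) rose and 2 (3.77%) fell, against 9.40% and 7.95% of all probe sets. AUR2 had the lowest difference of all 57 genes in each genotype. This rank is a description, since the genes and lists were chosen with earlier results of these data known.

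Among replication genes PSF2, a subunit of the GINS complex that travels with the replicative helicase, had 4.72 and 4.66 in gun1-1 with lincomycin against 4.16 and 4.44 without it, 5.07 and 5.20 in abi4-102 with lincomycin against 4.33 and 4.26 without it, and 4.92 and 4.84 in Col-0 with lincomycin against 4.03 and 4.19 without it. It rose by 0.84 in abi4-102 (SE 0.12, adjusted p = 0.00155) and by 0.77 in Col-0 (SE 0.12, adjusted p = 0.00148), and was not called in gun1-1. ASF1B, a histone chaperone, rose by 0.64 in abi4-102 (adjusted p = 0.0123) and by 0.50 in Col-0 (adjusted p = 0.0296). Its gun1-1 difference of 0.11 was not called. PRL, the MCM7 subunit of the helicase, was not called, at -0.37 in gun1-1, 0.29 in abi4-102 and 0.14 in Col-0.

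Of the 5 regulators measured, FBL17, the F-box protein that targets KRP inhibitors for destruction, rose by 0.65 in abi4-102 (SE 0.14, adjusted p = 0.0107) and by 0.45 in Col-0 (SE 0.14, adjusted p = 0.041). Its gun1-1 difference of 0.21 was not called. SIM, an inhibitor of cyclin-dependent kinases that promotes endoreduplication in trichomes, rose by 0.49 in Col-0 (SE 0.15, adjusted p = 0.0455). It was not called in gun1-1 (-0.10) or abi4-102 (0.14). The kinase cdc2cAt was not called, at -0.08 in gun1-1, -0.27 in abi4-102 and 0.25 in Col-0. Its signal was dim, with a mean at the 8.4 percentile of all probe sets. Among 11 DNA repair genes RAD4, related to the damage sensor of nucleotide excision repair, rose by 0.95 in abi4-102 (SE 0.13, adjusted p = 0.00116) and by 0.59 in Col-0 (SE 0.13, adjusted p = 0.00993). In gun1-1 the RAD4 difference was 0.37 and not called (adjusted p = 0.097). ATLIG4, the ligase of end joining, rose by 0.68 in abi4-102 (adjusted p = 0.0206). Its differences in Col-0 (0.52, adjusted p = 0.0534) and gun1-1 (0.42, adjusted p = 0.131) were also positive but not called. TOP3A, a topoisomerase that works with RecQ helicases, rose by 0.42 in Col-0 (adjusted p = 0.0232) and was not called in gun1-1 (-0.29) or abi4-102 (-0.20).

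Of the genes that act beside the Auroras, 1 of 6 on the mitosis and cytokinesis list and 1 of the 12 added spindle and cytokinesis genes rose in Col-0, where 9.40% of all probe sets were called as higher, and counts this small do not set them apart. TON1B, needed for the preprophase band that marks the division plane, rose by 0.50 in abi4-102 (SE 0.11, adjusted p = 0.0144) and by 0.67 in Col-0 (SE 0.11, adjusted p = 0.00209). Its gun1-1 difference of 0.255 was not called. The gun1-1 response minus that of Col-0 was not called for TON1B, ASF1B, FBL17 or RAD4. BUB3.1, of the spindle checkpoint, rose by 0.50 in Col-0 (SE 0.11, adjusted p = 0.0109) and was not called in gun1-1 (-0.09) or abi4-102 (-0.22). Not called were WYR, related to the INCENP partner of Aurora kinases (-0.14 in gun1-1, -0.01 in abi4-102, 0.04 in Col-0), Haspin, another histone H3 kinase (-0.28, -0.11 and 0.11 in that order of genotypes), and HTR12, the centromeric histone H3 (-0.32, -0.01 and 0.01). WYR, Haspin and HTR12 were dim, with means at the 6.3, 31.5 and 22.1 percentiles of all probe sets, so a change could be missed. HBT, the second CDC27 of the anaphase-promoting complex, was not called either, at 0.05 in gun1-1, -0.16 in abi4-102 and 0.02 in Col-0. Like CDC27a, HBT had intervals that include 0 in all 3 genotypes.

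Of the plastid division genes 2 were measured, and 2 were called as lower in Col-0, 1 in abi4-102 and 0 in gun1-1. Over all probe sets 7.95%, 5.51% and 4.90% were called as lower in that order. Counts out of 2 are too small to set these genes or the genotypes apart. FTSZ2-2, one of the tubulin-like proteins of the ring that divides chloroplasts, had 6.51 and 6.38 in gun1-1 with lincomycin against 6.81 and 6.87 without it, 5.75 and 5.82 in abi4-102 with lincomycin against 6.54 and 6.25 without it, and 5.62 and 5.65 in Col-0 with lincomycin against 6.97 and 6.77 without it. Its difference was -0.40 in gun1-1 (SE 0.13, adjusted p = 0.0683), -0.61 in abi4-102 (adjusted p = 0.00997) and -1.23 in Col-0 (adjusted p = 8.18e-05). FTSZ2-1, its close relative, fell by 0.62 in Col-0 (SE 0.10, adjusted p = 0.00178) and was not called in gun1-1 (-0.19) or abi4-102 (-0.02). Without lincomycin the FTSZ2-1 mean was already lower in abi4-102 (7.42) than in Col-0 (7.95). Both genes lay among 13 plastid division loci, of which the other 11 were not analysed here.

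**Figure D3:**
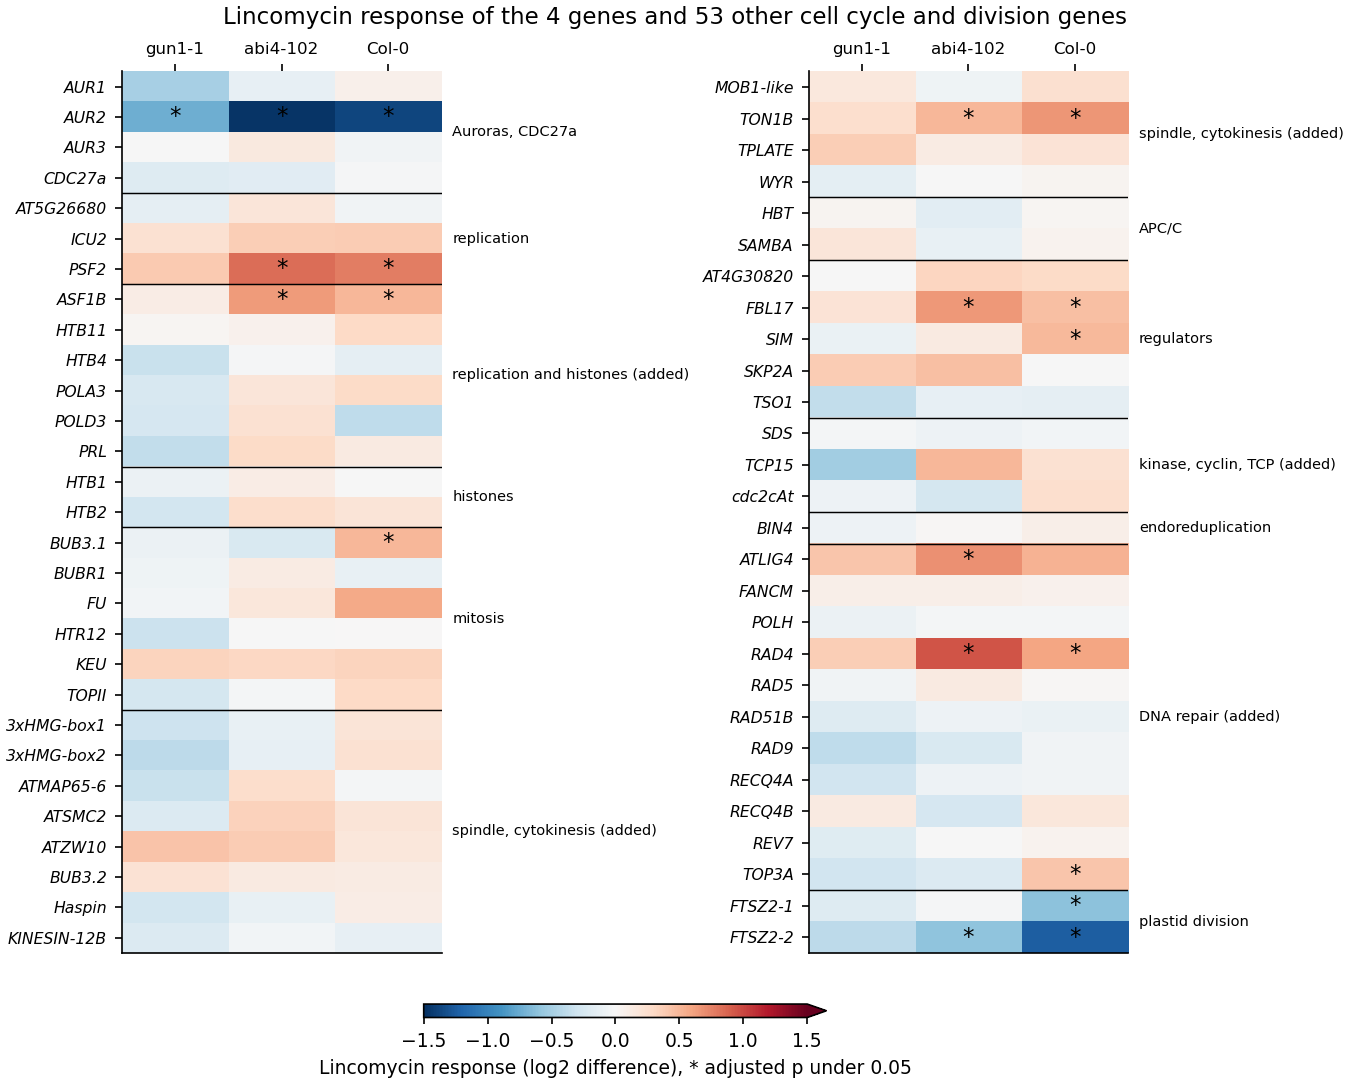
Lincomycin response (colour, log2 difference, with minus without) of the 4 genes and 53 other cell cycle and division genes in gun1-1, abi4-102 and Col-0, grouped by list; an asterisk marks an adjusted p under 0.05. AUR2 is the darkest blue in each column, and the gun1-1 column has an asterisk at AUR2 alone.

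Several of these calls hung on single arrays. In Col-0 PSF2, TON1B, FTSZ2-1 and FTSZ2-2 passed with every array left out in turn, but ASF1B, FBL17, SIM and TOP3A were lost without any one of the 4 Col-0 arrays (adjusted p from 0.0558 to 0.222). FBL17 was also lost without either untreated abi4-102 array (0.0609) and SIM without either untreated gun1-1 array (0.0565), which enter only the pooled spread. BUB3.1 was lost without either untreated array (adjusted p = 0.076 and 0.0568) or lincomycin-treated replicate 1 (0.0896), and RAD4 without untreated replicate 2 (0.096) or lincomycin-treated replicate 1 (0.0796). The count of genes that rose in Col-0 was 3, 2, 2 and 4 without untreated replicates 1 and 2 and lincomycin-treated replicates 1 and 2, in that order. In abi4-102 PSF2 and RAD4 passed throughout, while ASF1B was lost without untreated or lincomycin-treated replicate 2 (0.1 and 0.0735). ATLIG4, FBL17 and TON1B there were lost without either untreated replicate or lincomycin-treated replicate 2 (0.0548 to 0.122). There 2 genes rose without untreated replicate 2 or lincomycin-treated replicate 2, and FTSZ2-2 was lost without untreated replicate 1 (-0.46, adjusted p = 0.087) or lincomycin-treated replicate 1 (-0.58, adjusted p = 0.0562).

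Between mutant and Col-0 the pathway counts were small. They were 2 of 53 for the gun1-1 response minus that of Col-0 (4.38% of all probe sets called) and 4 of 53 for gun1-1 against Col-0 with lincomycin (10.0%). They were 1 of 53 for abi4-102 against Col-0 without lincomycin (1.68%), and such counts say nothing particular about these genes. The response of FTSZ2-2 was less negative in gun1-1 than in Col-0, by 0.83 (SE 0.18, adjusted p = 0.0247), and that of TOP3A was lower, by -0.71 (SE 0.16, adjusted p = 0.0285). With lincomycin, FTSZ2-2 was higher in gun1-1 than in Col-0 by 0.80 (SE 0.13, adjusted p = 0.0022). TCP15, a TCP transcription factor of growing organs, TOP3A and TON1B were lower, by -0.81, -0.50 and -0.43 (adjusted p = 0.00938, 0.0153 and 0.0342). Without lincomycin FTSZ2-1 was lower in abi4-102 than in Col-0, by -0.53 (SE 0.10, adjusted p = 0.0305). In the other 3 comparisons 0 of 53 were called, against 0%, 0.457% and 0.0220% of all probe sets for the abi4-102 response, abi4-102 with lincomycin and gun1-1 without it. TCP15 and TOP3A missed the threshold without Col-0 lincomycin-treated replicate 2 (adjusted p = 0.067 and 0.0829) or gun1-1 lincomycin-treated replicate 2 (0.0718 and 0.0781). With only the groups compared, TOP3A and TON1B were lost (0.0953 and 0.142). TON1B was lost in 8 of the 12 cases (0.0558 to 0.148), among them each of the 4 arrays compared, and the responses of FTSZ2-2 and TOP3A in 7 and 8 of 12 (up to 0.112 and 0.12). The abi4-102 call for FTSZ2-1 was lost without any one of the 4 untreated arrays compared (0.104 to 0.258).

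Patterns over the 12 arrays were compared by Pearson correlation, as a description, since the arrays share the treatment. AUR2 correlated at 0.27 with AUR1, -0.25 with AUR3 and 0.43 with CDC27a. Among the 13349 other genes read, the most alike were AT5G22390 (r = 0.987), AT1G62290 (r = 0.983) and BGLU40 (r = 0.976), the last named as a beta-glucosidase. AT5G22390 had 6.06 and 6.30 in gun1-1 with lincomycin against 6.81 and 7.04 without it, 5.46 and 5.48 in abi4-102 with lincomycin against 6.95 and 6.67 without it, and 5.66 and 5.51 in Col-0 with lincomycin against 6.98 and 6.91 without it. Its differences, -0.75, -1.34 and -1.36, followed those of AUR2 closely, and it too was higher in gun1-1 than in the other genotypes on every array with lincomycin. AT5G22390 was picked for its likeness to AUR2 on these same arrays, so this is no separate result.

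Within the pathway AUR2 was most like FTSZ2-2 (r = 0.886), FTSZ2-1 (r = 0.684) and TSO1, a CXC-domain regulator of division (r = 0.645), and least like RAD4 (r = -0.925), FBL17 (r = -0.908) and PSF2 (r = -0.898). AUR1 was most like HTR12 (r = 0.721), 3xHMG-box1 (r = 0.686) and 3xHMG-box2 (r = 0.682), and PRL (r = 0.672). CDC27a was most like HTR12 (r = 0.776) and RECQ4A (r = 0.773), and AUR3 most like PRL (r = 0.641). CDC27a, HTR12 and RECQ4A were dim, with means at the 28.6, 22.1 and 33.4 percentiles of all probe sets. They were lower on replicate 1 than on replicate 2 of abi4-102 with lincomycin (3.38, 3.37 and 3.91 against 4.12, 3.78 and 4.25). The same held in gun1-1 with lincomycin, but in Col-0 with lincomycin only RECQ4A was lower on replicate 1. The part of such single arrays in these correlations was not tested. The median over the 53 genes was -0.07 for AUR2, 0.09 for AUR1, 0.15 for CDC27a and 0.16 for AUR3.

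**Figure D4:**
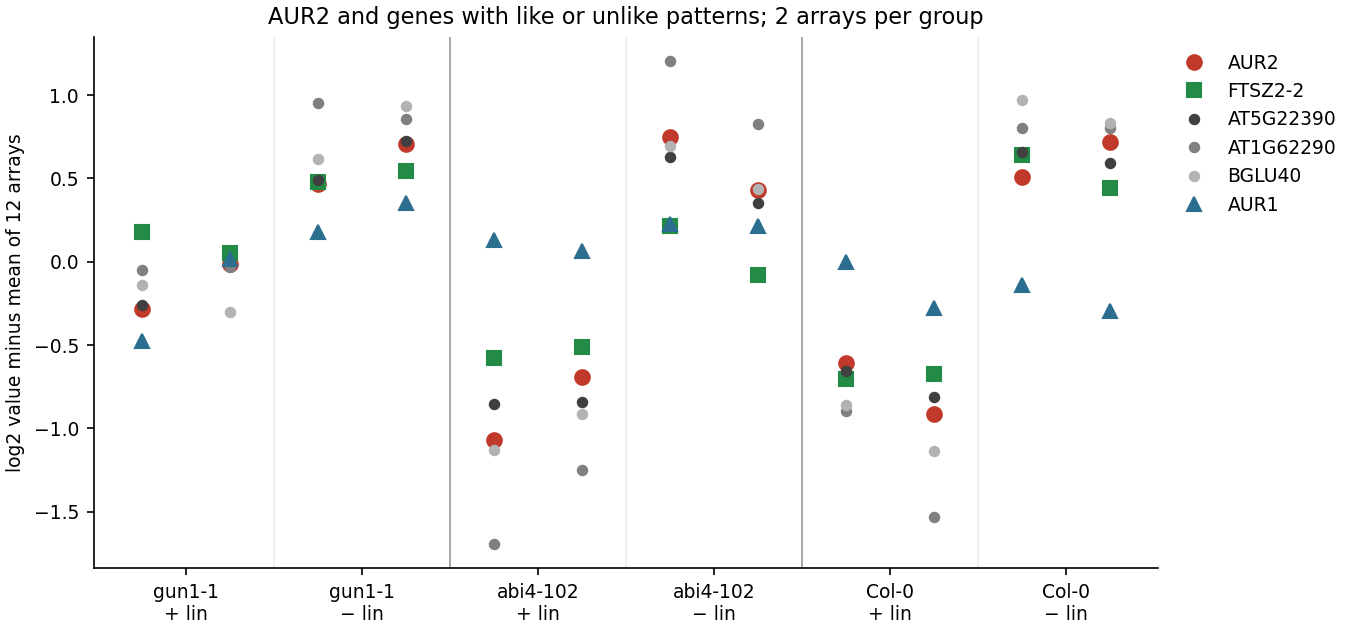
RMA expression minus each gene's mean over 12 arrays (log2, vertical axis) for AUR2, its 3 most alike genes, FTSZ2-2 and AUR1, 2 arrays per group. AUR2, AT5G22390, AT1G62290 and BGLU40 are low in abi4-102 and Col-0 with lincomycin and lie between in gun1-1 with lincomycin, a pattern that AUR1 does not show.

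Levels of other tissues' markers were read beside AUR2. Of 40 marker genes in 6 lists 7 were measured, and no marker of the vasculature or of seed storage was among them. PSAE-1, a photosystem I subunit and the 1 measured marker of 3 for green shoot, had 12.04 and 12.02 in gun1-1 with lincomycin against 12.47 and 12.54 without it, 10.77 and 10.84 in abi4-102 with lincomycin against 12.30 and 12.34 without it, and 10.48 and 10.64 in Col-0 with lincomycin against 12.48 and 12.37 without it. It fell by 0.48 in gun1-1, by 1.52 in abi4-102 and by 1.87 in Col-0, and its gun1-1 response differed from that of Col-0 by 1.4 (SE 0.15, adjusted p = 0.00116). Less PSAE-1 RNA per cell and less green tissue cannot be told apart here, so these values are no measure of shoot content. The PSAE-1 call in gun1-1 was lost with only the groups compared (adjusted p = 0.0972). Without single arrays the difference there ran from -0.51 to -0.44, and the call hung on single arrays. CLV3, of the shoot stem cells and the 1 measured marker of 14 for meristems, had values from 3.2 to 3.77 on the arrays with lincomycin and from 3.80 to 4.06 without it. The share of all probe sets that separate in this way was not counted. The CLV3 signal was dim, with a mean at the 25.8 percentile of all probe sets. Its differences of -0.20 in gun1-1, -0.46 in abi4-102 and -0.30 in Col-0 were not called (adjusted p = 0.418, 0.0639 and 0.21).

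The 2 measured root markers of 5 had a summed level, on the log2 scale, of 5.98 to 7.22 with lincomycin and 5.81 to 6.38 without it. EXPA18, an expansin of root hairs, had 6.64 and 5.57 in gun1-1 with lincomycin against 5.08 and 4.78 without it and rose by 1.18 (adjusted p = 0.035). It was 0.64 and lost without lincomycin-treated replicate 1 (0.165), and was also lost without untreated gun1-1 replicate 1 or 2 (0.0808 and 0.152), without either untreated Col-0 array (0.0552) and with only the groups compared (0.11). EXPA7, the other root hair expansin, had 5.63 and 4.43 in gun1-1 with lincomycin against 4.60 and 4.85 without it, groups that overlap (0.30, adjusted p = 0.574). The 3 stomatal and epidermal markers of 8 had a summed level of 5.64 to 6.18 with lincomycin and 6.10 to 6.39 without it, and none was called. Shoot and root hair genes were thus both measured in these whole seedlings. The part of cell makeup in the fall of AUR2 was not tested.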

How the data were processed

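Total RNA of whole seedlings was hybridised to 12 ATH1 arrays. The deposited table holds log2 values that the authors made with RMA, per the submitters' processing notes; which version, software and probe set definition they used is not given in the sources used here. The method equalises the distributions, which hides any change in total mRNA. Array medians ran from 5.44 to 5.52, and the 2 arrays of a group had r = 0.990 to 0.996 over probe sets. No replicate pair was identical (0 of 6). The number of arrays limits the precision.

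The table has 22810 probe sets; without 64 controls, 22746 entered the test. The annotation names 1 gene for 13513 of them, several for 503 and none for 8730. A gene was read from the probe set with the highest mean that names it alone. limma 3.58.1 in R 4.3.3 (lmFit, eBayes) fitted 6 group means over all 12 arrays, with 6 residual degrees of freedom and two-sided Benjamini-Hochberg adjustment over all probe sets within each of 9 comparisons. The fit was tested on simulated data with known shifts in Col-0 with lincomycin only and independent values on each array. That run does not cover shifts in many groups or variation that arrays share. Every gene that met the symbol rule is named, pathway genes where called or as partners of the 4 genes, and the 3 most alike genes. The partners named without a call, the neighbours, the within-array differences and the correlations of AUR1, AUR3 and CDC27a were chosen after values were seen. The genes and lists were chosen with earlier results of these data known.

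Other settings tried were a replicate block, fits restricted to the groups compared, a robust prior with an intensity trend, centring on array medians, the upper 60% of probe sets by mean, probe sets that name 1 gene, a log2 difference of at least 1, the probe set of highest variance, and leaving out each array. No sequence is printed, since no sequence table or genome was used here.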

Additional observations from a re-analysis of the deposited data

Results flagged for a closer look

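The lincomycin response differed between gun1-1 and Col-0 in 3 of the genes read here, by limma's test of the difference of responses over all probe sets. For FTSZ2-2 the gun1-1 response minus the Col-0 response was 0.83 (adjusted p = 0.0247, and 0.0242 to 0.112 with each array left out, lost in 7 of 12 cases). For TOP3A it was -0.71 (adjusted p = 0.0285, and 0.0323 to 0.12 with each array left out, lost in 8 of 12 cases, and 0.0632 with an intensity trend and robust prior). For the green shoot marker PSAE-1 it was 1.4 (adjusted p = 0.00116).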

How the results depend on the processing

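The fall of AUR2 in abi4-102 and Col-0 passed under every alternative run, leaving out each array included, with differences of -1.66 to -1.28 and -1.52 to -1.22 without single arrays. The call in gun1-1 did not: 0 of the 4 genes were called with only the groups compared. Without single arrays the AUR2 difference in gun1-1 ran from -0.87 to -0.60. With a log2 difference of at least 1 required, 0 of the 4 were called there by construction, since AUR2 differed by -0.73. For gun1-1 against Col-0 with lincomycin, 1 gene (AUR2) was called with an intensity trend and robust prior, with arrays centred on their medians and in the upper 60% of probe sets, where only 2 of the 4 genes were tested, and 0 to 1 without single arrays. In that comparison AUR2 was not called under the other 5 settings. Of these, the log2 difference of at least 1 could not be met, and the probe set of highest variance repeated the main fit. The cause of the changes between settings was not tested. With a log2 difference of at least 1 required, 0 pathway genes rose and 1 fell in Col-0, and 0 rose and 0 fell in abi4-102, by construction. With only the groups compared 0 fell in abi4-102. In gun1-1 1 pathway gene rose with arrays centred and 1 in the upper 60%, and 0 to 1 without single arrays. Without single arrays 2 to 10 rose in Col-0, 2 to 7 rose in abi4-102 and 0 to 1 fell there.

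Only uncalled differences changed sign. With arrays centred AUR3 in gun1-1 was 0.008. With each array left out in turn, the lincomycin difference in Col-0 ran from -0.059 to 0.22 for AUR1, -0.12 to 0.019 for AUR3 and -0.15 to 0.11 for CDC27a. In gun1-1 it ran from -0.056 to 0.045 for AUR3 and -0.49 to 0.11 for CDC27a, and in abi4-102 from -0.54 to 0.20 for CDC27a. The gun1-1 response minus that of Col-0 ran from -0.025 to 0.11 for AUR3 and -0.47 to 0.13 for CDC27a, and the abi4-102 response minus that of Col-0 from -0.285 to 0.094 for AUR2 and -0.52 to 0.22 for CDC27a. With lincomycin gun1-1 minus Col-0 ran from -0.34 to 0.15 for AUR1, -0.046 to 0.09 for AUR3 and -0.23 to 0.37 for CDC27a, and abi4-102 minus Col-0 from -0.31 to 0.071 for AUR2 and -0.41 to 0.33 for CDC27a. Without lincomycin gun1-1 minus Col-0 ran from -0.14 to 0.094 for AUR2 and -0.086 to 0.044 for AUR3, and abi4-102 minus Col-0 from -0.18 to 0.14 for AUR2 and -0.064 to 0.088 for AUR3.

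Deviations of same-numbered arrays correlated at -0.28 to 0.28 over 15 pairs of groups, with 3 over 0.1. The highest value was between abi4-102 with and without lincomycin, the lowest between Col-0 with lincomycin and gun1-1 without it. With 2 arrays per group these values cannot show whether replicate numbers pair the samples. With the replicate number as a block AUR2 kept its calls (adjusted p = 0.0355 in gun1-1, 0.00111 in abi4-102 and 0.000862 in Col-0), and FBL17 and SIM in Col-0 did not (0.0552 and 0.0585). Centring also took FBL17 and SIM in Col-0 (0.0533 and 0.0517) and TON1B in gun1-1 against Col-0 with lincomycin (0.0622) out of the calls, and so did the intensity trend with robust prior for TOP3A in Col-0 (0.0586) and in the gun1-1 response minus that of Col-0 (0.0632). FTSZ2-2 in abi4-102 was at 0.0502 with only the groups compared. Limits are the 2 arrays per group and an annotation that names few cell cycle genes. Signals were dim for AUR3 and CDC27a, for the marker CLV3, and for pathway genes such as WYR, HTR12, Haspin and cdc2cAt.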
